A study of Homo sapiens with 5 samples.

Results

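The genes described here are 8 of the 33538 in the deposited matrix: PROM1, MEX3A, ALDH1A3, CD24, KIT, EPCAM, SOX4 and LGR4, all used as markers of mammary progenitor or stem cells. They were chosen by name, with their CPM, share of positive cells and joint expression in these same samples already known. Those values chose the genes, so they are given as a description and no test was run on them. The cells are MDA-MB-468, an established human triple-negative breast carcinoma line, and the cells of 5 samples carried a barcoded antibody each and were read together in 1 single-cell 3' library. HA control and HA FOSL1 form one system. VPR control, VPR FOSL1 gRNA2 and VPR FOSL1 gRNA3 form the other, in which 2 guides address FOSL1. The labels mark the samples GOF and spell out neither GOF, HA nor VPR. FOSL1 codes for FRA-1, which pairs with JUN proteins in AP-1. Each group is 1 sample, so every interval below covers counting error only and no p-value compares one sample with another. The p-values given for related genes come from a model over all 5 samples, whose limits are stated there. A 5-FU treatment stands in the labels for the series in general, and whether these samples received it is not stated.

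In the mammary gland a bipotent or luminal progenitor compartment gives rise to the secretory and ductal cells, and basal cells form the outer layer. Antibodies to surface proteins such as CD24, EPCAM, KIT and prominin-1 (PROM1, CD133) sort these fractions, and the retinaldehyde dehydrogenase ALDH1A3 accounts for much of the enzyme activity by which ALDH-positive breast cancer cells are recognised. SOX4 is a transcription factor of progenitors and of epithelial-mesenchymal transition, MEX3A is an RNA-binding ubiquitin ligase that marks slowly cycling intestinal stem cells, and LGR4 is the R-spondin receptor that raises Wnt signalling. Triple-negative tumours often keep a luminal progenitor profile.

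FOSL1 itself was at 8.96 CPM (UMIs of the gene per 1000000 gene UMIs of the sample) in HA control and 8.91 in VPR control, and at 63.5 in HA FOSL1, 100.5 in gRNA2 and 94.3 in gRNA3. The samples kept 3380, 1826, 2595, 2542 and 4299 cells in the order HA control, HA FOSL1, VPR control, gRNA2 and gRNA3, with 42058533 to 85556699 gene UMIs each. The median cell had 20768.5 UMIs in HA FOSL1 and 15401.5 to 18121 in the others. The median mitochondrial share was 11.5% and 11.3% in the 2 controls and 9.80% to 10.6% in the FOSL1 samples, and its part in the results was not tested. The line's markers fit the label in that EGFR was at 1829 CPM or more and KRT8, KRT18 and KRT19 at 925 or more in every sample, while PGR had 0 UMIs, ESR1 reached 4.87 CPM and ERBB2 13.5. All 13 markers of immune, fibroblast, endothelial and erythroid cells were under 5 CPM in every sample, with a summed level of 4.53 to 8.80 CPM; DCN and HBB were at 0.

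The promoters of the 3 genes that lay furthest below their controls are shown first, because the factor that was raised is known to bind the AP-1 site TGANTCA and, with partners, TGACGTCA. Each window runs from 250 bases before to 50 after a transcription start (RefSeq, GRCh38.p14, written 5′ to 3′ on the gene's strand), and capitals mark a match to either motif on either strand. PROM1 has 4 listed starts. The window of the outermost one, chr4:16083974-16084273 on the minus strand, holds neither motif. The window of the innermost start, chr4:16076069-16076368, holds 1 TGAGTCA beginning 189 bases before its start. MEX3A lies at chr1:156082416-156082715 on the minus strand and SOX4 at chr6:21593501-21593800 on the plus strand.
PROM1, outermost start: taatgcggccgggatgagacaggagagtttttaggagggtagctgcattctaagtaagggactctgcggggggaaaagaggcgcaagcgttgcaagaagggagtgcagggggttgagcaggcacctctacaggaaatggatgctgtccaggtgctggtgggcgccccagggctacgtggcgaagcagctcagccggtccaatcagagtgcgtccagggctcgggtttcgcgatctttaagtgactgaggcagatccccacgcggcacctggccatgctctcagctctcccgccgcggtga
PROM1, innermost start: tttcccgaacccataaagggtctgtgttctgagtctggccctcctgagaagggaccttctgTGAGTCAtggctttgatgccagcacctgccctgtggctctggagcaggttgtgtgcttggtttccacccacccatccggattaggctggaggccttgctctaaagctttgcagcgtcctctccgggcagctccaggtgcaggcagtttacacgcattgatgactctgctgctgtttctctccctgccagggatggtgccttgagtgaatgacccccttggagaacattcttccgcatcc
MEX3A: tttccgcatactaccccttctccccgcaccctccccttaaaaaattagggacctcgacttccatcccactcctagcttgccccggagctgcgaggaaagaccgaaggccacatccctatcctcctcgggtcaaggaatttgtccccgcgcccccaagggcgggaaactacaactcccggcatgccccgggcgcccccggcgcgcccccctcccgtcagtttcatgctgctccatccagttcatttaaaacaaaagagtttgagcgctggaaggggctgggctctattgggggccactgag
SOX4: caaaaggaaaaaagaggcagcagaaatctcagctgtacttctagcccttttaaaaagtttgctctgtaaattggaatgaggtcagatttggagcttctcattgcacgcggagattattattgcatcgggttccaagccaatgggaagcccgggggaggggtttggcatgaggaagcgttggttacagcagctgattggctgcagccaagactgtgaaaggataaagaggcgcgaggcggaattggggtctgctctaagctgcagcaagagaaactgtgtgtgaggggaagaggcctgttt
Of the 8 genes 7 had a window, and no other window of theirs held TGANTCA. None held TGACGTCA. Among all 35116 windows of this length 7.71% held TGANTCA and 1.85% TGACGTCA. These are letters in short windows and not binding measurements, and which PROM1 start the cells use cannot be read from 3' tags.

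PROM1, MEX3A and SOX4 were lower in every FOSL1 sample than in the control of its system, and lowest in HA FOSL1. Of the 8 genes, 7 passed a mean of 20 CPM over both samples of a comparison, KIT being the exception. At least 1.5-fold lower were 3 of these 7 in HA FOSL1 (PROM1, MEX3A and SOX4), where 2.19% of all 5748 genes past the same filter were that much lower. In gRNA2 they were 2 (PROM1 and MEX3A; background 0.591%) and in gRNA3 again 3 (background 0.836%). No member was 1.5-fold higher, against 5.97%, 0.921% and 0.958% of all genes. Between the 2 controls no member differed by 1.5-fold, and 0.0873% of all genes were that much higher and 0.175% lower in VPR control. The median log2 ratio of the 7 was -0.46 in HA FOSL1, -0.38 in gRNA2 and -0.42 in gRNA3, beside 0.0042, 0.0089 and 0.0019 over all genes. PROM1 in all 3 comparisons and MEX3A in HA FOSL1 passed the filter only through their controls. The genes were chosen on these contrasts, so nothing is read from the counts.

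**Figure D1:**
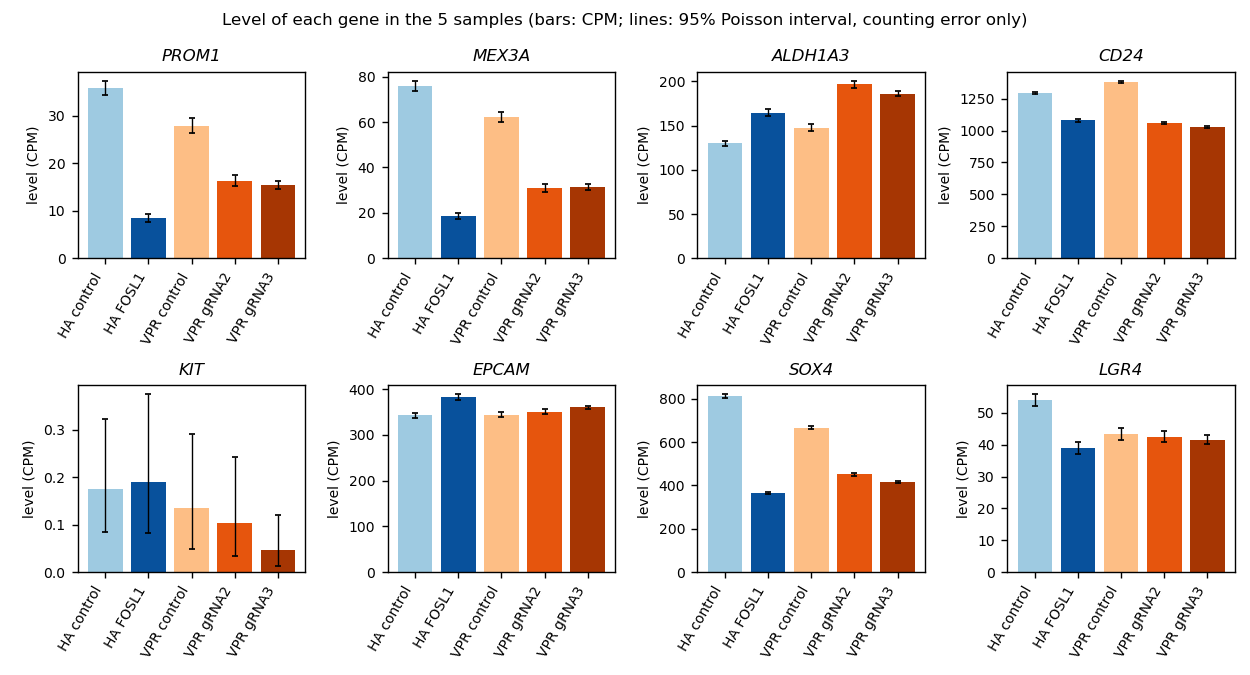
Level of each of the 8 genes in the 5 samples, in CPM on axes that start at 0 and differ between panels. Bars are 1 sample each and lines are 95% Poisson intervals; PROM1, MEX3A and SOX4 are highest in the 2 controls, ALDH1A3 is lowest there, and KIT stays under 0.2 CPM.

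SOX4, the transcription factor, stood at 814 CPM in HA control, 366 in HA FOSL1, 668 in VPR control, 452 in gRNA2 and 414 in gRNA3. The 5 Poisson intervals do not overlap, and both controls lie above all 3 FOSL1 samples. The log2 ratio of CPM + 1 to the control was -1.15 in HA FOSL1 (95% interval -1.18 to -1.12), -0.56 in gRNA2 (-0.59 to -0.54) and -0.69 in gRNA3 (-0.71 to -0.66), so gRNA2 just missed a 1.5-fold difference (0.58 on this scale). VPR control itself was lower than HA control by a log2 ratio of -0.28. In HA FOSL1 32 of 5748 genes had a lower ratio, in gRNA2 35 of 5752 and in gRNA3 35 of 5743.

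MEX3A, the RNA-binding protein, was at 76.0 CPM in HA control, 18.4 in HA FOSL1, 62.2 in VPR control, 30.9 in gRNA2 and 31.3 in gRNA3. The intervals of the 2 guides overlap and no other neighbouring pair does. Its log2 ratio was -1.99 in HA FOSL1 (-2.09 to -1.88), -0.98 in gRNA2 (-1.07 to -0.89) and -0.97 in gRNA3 (-1.04 to -0.89), with -0.29 between the controls. Only 6, 11 and 12 genes had lower ratios in the 3 comparisons.

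PROM1, a cholesterol-binding glycoprotein of membrane protrusions, was at 35.8 CPM in HA control, 8.44 in HA FOSL1, 27.9 in VPR control, 16.3 in gRNA2 and 15.3 in gRNA3. As for MEX3A, only the 2 guides overlap. The log2 ratio was -1.96 in HA FOSL1 (-2.11 to -1.82), -0.75 in gRNA2 (-0.87 to -0.62) and -0.83 in gRNA3 (-0.93 to -0.72), with -0.35 between the controls. PROM1, MEX3A and SOX4 were each lower in VPR control than in HA control, so the guides lie further below HA control than below their own. Between gRNA3 and gRNA2 the log2 ratio of the 8 genes ran from -0.12 for SOX4 to 0.04 for EPCAM.

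CD24, a small GPI-anchored surface glycoprotein, was at 1292 CPM in HA control, 1079 in HA FOSL1, 1380 in VPR control, 1058 in gRNA2 and 1028 in gRNA3. Both controls again lie above all FOSL1 samples, but by less: the log2 ratios were -0.26 in HA FOSL1, -0.38 in gRNA2 and -0.42 in gRNA3. CD24 has near-identical copies elsewhere in the genome, so its counts depend on how shared reads were assigned. The empty droplets (10 to 100 UMIs) had 1418 CPM of CD24.

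ALDH1A3 ran the other way. It was at 130.0 CPM in HA control, 164 in HA FOSL1, 148 in VPR control, 197 in gRNA2 and 186 in gRNA3. Both controls lie below all 3 FOSL1 samples, with no overlap of neighbouring intervals. The log2 ratio was 0.34 in HA FOSL1, 0.41 in gRNA2 and 0.33 in gRNA3, none past 1.5-fold, and 0.18 between the controls. Of all genes past the filter, 87.0% had a lower ratio than ALDH1A3 in HA FOSL1, 98.1% in gRNA2 and 96.9% in gRNA3.

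EPCAM, the epithelial adhesion molecule, varied least of the 7. It was at 343 CPM in HA control, 383 in HA FOSL1, 344 in VPR control, 351 in gRNA2 and 360 in gRNA3, and the 2 controls overlap. The log2 ratio was 0.16 in HA FOSL1, 0.03 in gRNA2, whose interval holds 0, and 0.07 in gRNA3.

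Of the 2 receptors, LGR4 was at 53.9 CPM in HA control, 39.0 in HA FOSL1, 43.3 in VPR control, 42.6 in gRNA2 and 41.6 in gRNA3. HA control stands above the other 4 samples, whose neighbouring intervals overlap. The log2 ratio was -0.46 in HA FOSL1 (-0.54 to -0.37), -0.03 in gRNA2 (-0.11 to 0.06) and -0.06 in gRNA3 (-0.14 to 0.02). VPR control was also lower than HA control, by a log2 ratio of -0.31. KIT, the stem cell factor receptor of luminal progenitors, had 10, 8, 6, 5 and 4 UMIs in the 5 samples in the order given above, which is 0.0468 to 0.190 CPM. Its intervals all overlap and a difference was not detectable at this depth.

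**Figure D2:**
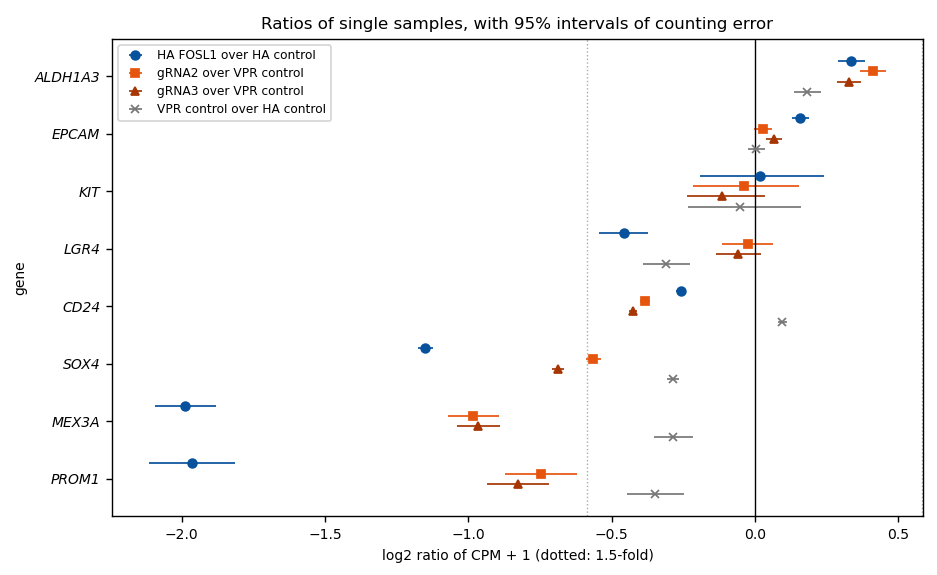
Log2 ratio of CPM + 1 (horizontal axis) of each gene (vertical axis) in the 3 FOSL1 samples against their controls and in VPR control against HA control. Each point compares 1 sample with 1 other and its line is the 95% counting interval; PROM1 and MEX3A reach -1.96 and -1.99 in HA FOSL1, while LGR4 in the guides sits near 0.

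The share of cells with a UMI was compared after each cell was thinned to 5000 UMIs, which left out 13, 8, 8, 5 and 10 cells. In HA control 94.9% of cells had SOX4 (Clopper-Pearson interval 94.1 to 95.6), against 73.0% of HA FOSL1 cells (70.9 to 75.1), 90.4% of VPR control, 81.5% of gRNA2 and 80.4% of gRNA3 cells. The median cell had 4, 1, 3, 2 and 2 SOX4 UMIs at this depth. Cells with 3 or more SOX4 UMIs were 68.0% in HA control, 27.9% in HA FOSL1, 56.9% in VPR control, 37.4% in gRNA2 and 33.5% in gRNA3, so cells rich in SOX4 were fewer, while most cells still had a UMI. Its variance over cells was close to 2 times the mean in every sample (Fano factor 1.95 to 2.24), beside 1.06 to 1.16 for EPCAM.

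MEX3A was found in 30.5% of HA control cells (28.9 to 32.1), 8.47% of HA FOSL1 cells (7.23 to 9.85), 24.6% of VPR control, 14.4% of gRNA2 and 14.9% of gRNA3 cells. PROM1 was found in 15.7% (14.5 to 17.0), 5.01% (4.05 to 6.11), 13.3%, 7.09% and 7.93%. Both genes are sparse, so a cell without a UMI is not a cell without the RNA: unthinned, the PROM1 shares were 41.0%, 15.3%, 36.0%, 24.2% and 23.2% and the MEX3A shares 63.0%, 27.3%, 55.2%, 37.1% and 39.5%. The order of the samples is the same for MEX3A, and for PROM1 the 2 guides change places.

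ALDH1A3 was found in 43.7% of HA control cells, 51.8% of HA FOSL1, 47.9% of VPR control, 59.2% of gRNA2 and 57.0% of gRNA3 cells. EPCAM ranged from 81.2% to 83.8% and LGR4 from 18.1% to 23.6%, with HA control the highest for LGR4. CD24 was in 98.4% to 99.3% of the cells of each sample, and its median was 6, 5, 7, 5 and 5 UMIs. Before thinning, the cells with a KIT UMI were 10 of 3380 in HA control (0.296%), 8 of 1826 in HA FOSL1 (0.438%), 6 of 2595 in VPR control (0.231%), 5 of 2542 in gRNA2 (0.197%) and 4 of 4299 in gRNA3 (0.0930%), and thinning left 2, 2, 2, 2 and 0. A single line offers no cell type that lacks these genes, so free RNA was judged from 48909 empty droplets: PROM1 was at 18.9 CPM there (40 UMIs), MEX3A at 22.2, SOX4 at 335 and ALDH1A3 at 208. Below the empty droplets, which mix all samples, lay PROM1 in the 3 FOSL1 samples and MEX3A in HA FOSL1. ALDH1A3 and CD24 lay below them in all 5 samples. The counting interval of the droplets holds PROM1 in both guides (13.5 to 25.8 CPM) and MEX3A in HA FOSL1 (16.3 to 29.6). It also holds ALDH1A3 in gRNA2 (189 to 229) and CD24 in VPR control (1368 to 1470). LGR4 was at 33.1 CPM in the droplets (25.8 to 41.9), an interval that holds HA FOSL1 and gRNA3. EPCAM was at 312 CPM there (289 to 337), below all 5 samples. KIT had 0 UMIs there, and its interval (0 to 1.75 CPM) holds all 5 samples.

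**Figure D3:**
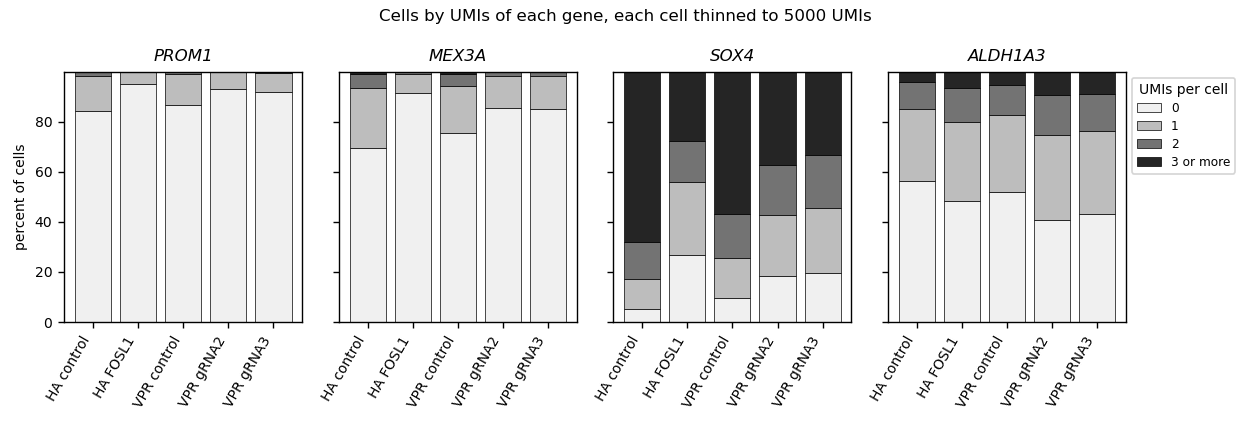
Percent of cells (vertical axis) with 0, 1, 2 or 3 and more UMIs of PROM1, MEX3A, SOX4 and ALDH1A3 in the 5 samples, each cell thinned to 5000 UMIs. The class of 3 or more SOX4 UMIs shrinks from 68.0% in HA control to 27.9% in HA FOSL1, and the ALDH1A3 cells with no UMI are fewest in gRNA2 at 40.8%.

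Cells with several markers at once were rarer in the FOSL1 samples, where PROM1, MEX3A and SOX4 were each found in fewer cells. The mean number per cell is the sum of the 8 single shares, so it adds nothing to them. A cell of HA control carried 3.89 of the 8 genes on average at 5000 UMIs, against 3.39 in HA FOSL1, 3.76 in VPR control, 3.63 in gRNA2 and 3.60 in gRNA3. Cells with 5 or more were 26.8%, 11.4%, 21.1%, 16.2% and 15.7%. PROM1, MEX3A and SOX4, a set named after their values were seen, were found together in 4.57% of HA control cells (3.89 to 5.33), 0.715% of HA FOSL1 (0.381 to 1.22), 3.32% of VPR control, 1.34% of gRNA2 and 1.66% of gRNA3 cells. The product of the 3 single shares was 4.54%, 0.310%, 2.96%, 0.834% and 0.952% in the same order. The share with all 3 thus lay above the product in each FOSL1 sample, with intervals that exclude it, while the control intervals hold it. This difference was not tested. All 3 genes were in 13 cells of HA FOSL1, 34 of gRNA2 and 71 of gRNA3. These are most of the 15, 38 and 77 cells with PROM1 and MEX3A. The share with all 3 is thus largely that of this pair, described below, and not a separate observation. Cells with none of the 3 were 3.27% of HA control and 25.0% of HA FOSL1, and 7.04%, 15.6% and 16.6% in VPR control, gRNA2 and gRNA3.

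How far pairs were found in the same cells was read from the share with both genes divided by the product of the 2 shares, which is 1 for genes that fall independently. Over the 21 pairs without KIT the median of this ratio was 1.00 in each sample. Pairs with CD24, EPCAM or SOX4, which were found in most cells, leave the ratio little room above 1. This median is thus no evidence that the genes fall independently. PROM1 with MEX3A departed from a ratio of 1 in the FOSL1 samples. In HA control 165 cells had both, a ratio of 1.02 (0.876 to 1.19), and in VPR control 92 cells, a ratio of 1.08 (0.877 to 1.32). In HA FOSL1 15 cells had both where the product gives 7.71, a ratio of 1.95 (1.09 to 3.20). The ratio was 1.46 in gRNA2 (38 cells, lower bound 1.04) and 1.52 in gRNA3 (1.20 to 1.89, 77 cells). Thinned to 10000 UMIs the ratios were 1.07 and 1.05 in the controls and 1.73, 1.36 and 1.29 in the FOSL1 samples, all 3 with intervals above 1. Without the 10% of cells with the most UMIs, the gRNA2 interval held 1 (0.900 to 1.83). The pair stood out among 21 after its values were seen, and no test of the difference between samples was run. Of the other pairs only MEX3A with ALDH1A3 in gRNA2 had an interval clear of 1, at 0.868 (0.752 to 0.996). These intervals take the single shares as fixed, so they seldom clear 1 for a gene found in most cells. SOX4 was in 83.8% of HA FOSL1 cells with MEX3A and 72.1% of those without. The shares were 85.2% and 80.9% in gRNA2 and 86.4% and 79.3% in gRNA3. In the controls they were 95.7% and 94.6% (HA) and 92.9% and 89.6% (VPR). These differences were not tested.

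**Figure D4:**
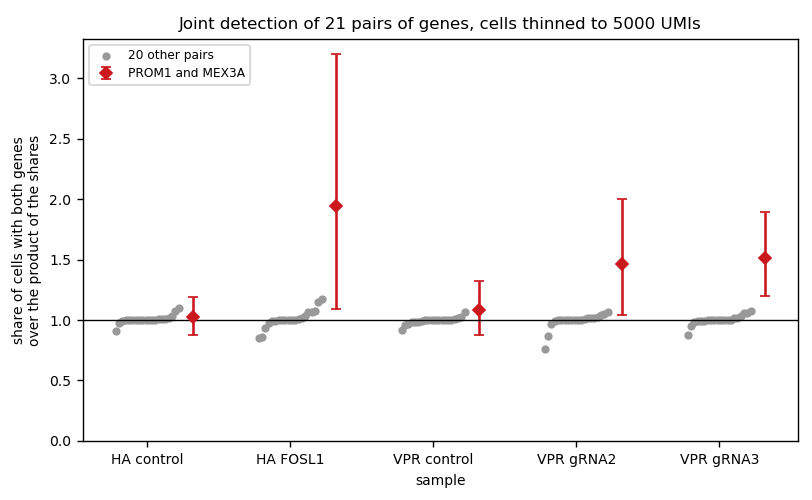
Share of cells with both genes over the product of the single shares (vertical axis, 1 means independent) for 21 pairs in each sample (horizontal axis), cells thinned to 5000 UMIs. Grey points are the other 20 pairs in order of value, and red diamonds with 95% counting intervals are PROM1 with MEX3A, at 1.02 and 1.08 in the controls and 1.46 to 1.95 in the FOSL1 samples.

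FOSL1 RNA was found together with PROM1 and MEX3A less often than the product in all 3 FOSL1 samples. PROM1 with FOSL1 was in 6 cells of HA FOSL1 where the product gives 18.7, a ratio of 0.321 (0.118 to 0.696), and the ratio was 0.698 in gRNA2 (0.504 to 0.941) and 0.788 in gRNA3 (0.625 to 0.980). For MEX3A it was 0.568 (0.337 to 0.895), 0.826 (0.675 to 0.999) and 0.857 (0.732 to 0.996). SOX4 with FOSL1 was at 0.868 in HA FOSL1 (0.767 to 0.976), 0.945 in gRNA2 (0.883 to 1.01) and 0.932 in gRNA3 (0.880 to 0.986). Thinned to 10000 UMIs, an alternative chosen after seeing the data, PROM1 in HA FOSL1 was at 0.559 (0.378 to 0.795). The PROM1 and MEX3A intervals stayed below 1 in all 3 samples at that depth, and those of SOX4 held 1. SOX4 was in most cells, so its ratio stays near 1 and an interval that holds 1 does not show independence. At 5000 UMIs FOSL1 was in 17.8% of HA FOSL1 cells with SOX4 and 28.0% without. The shares were 31.6% and 41.6% in gRNA2 and 27.5% and 37.6% in gRNA3. They were 3.50% and 6.43% in HA control and 3.85% and 5.65% in VPR control. In the controls the ratios of the 3 genes lay between 0.907 and 1.02 and their intervals held 1. FOSL1 was at 63.4 CPM in the empty droplets (134 UMIs) and at 8.96 and 8.91 CPM in the control cells, so a FOSL1 UMI in a control cell may be free RNA, and its part in these ratios was not tested.

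The same split can be read as a level. In HA FOSL1, cells with a FOSL1 UMI had 0.0160 PROM1 UMIs on average and cells without had 0.0623, a ratio of 0.257 (0.0920 to 0.582). For MEX3A the means were 0.0561 and 0.108 (ratio 0.520, 0.313 to 0.823) and for SOX4 1.45 and 1.98 (ratio 0.735, 0.670 to 0.806). SOX4 had a ratio of 0.733 in gRNA2 and 0.747 in gRNA3, and intervals that hold 1 in both controls (0.950 and 0.910). CD24 was lower in cells with FOSL1 in all 5 samples, controls included (0.827 to 0.915). The ALDH1A3 ratio was 1.23 in HA FOSL1 (1.09 to 1.39), and 1.01 and 0.991 in the guides, with intervals that hold 1. Few control cells carried a FOSL1 UMI (123 and 104), and a cell without one may still hold the RNA. The intervals of this split take each UMI as independent. Over cells SOX4 and CD24 varied more than that, with Fano factors of 1.95 to 2.24 and 1.70 to 1.96. Their intervals are therefore too narrow as a measure of spread between cells.

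**Figure D5:**
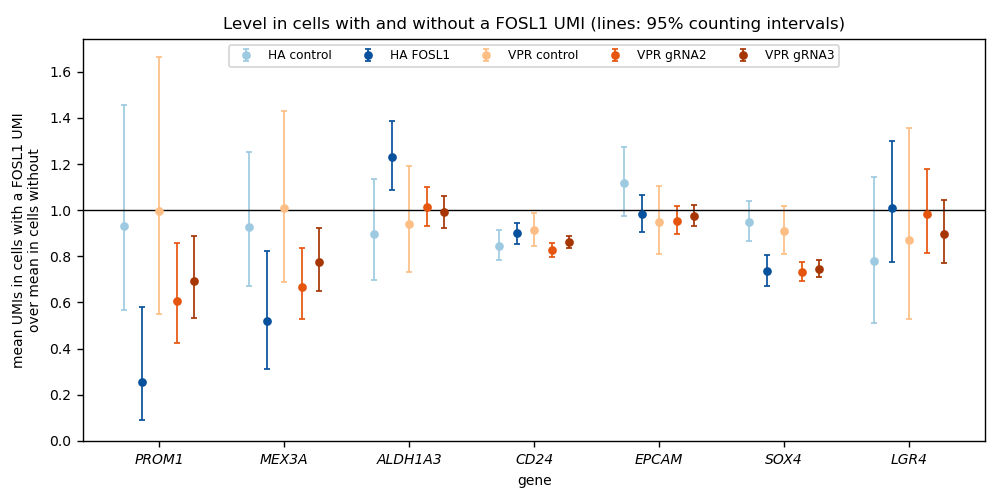
Mean UMIs of each gene in cells with a FOSL1 UMI over the mean in cells without (vertical axis), by gene (horizontal axis) and sample (colour), cells thinned to 5000 UMIs. Lines are 95% counting intervals that take each UMI as independent. PROM1, MEX3A and SOX4 lie below 1 in the 3 FOSL1 samples and their intervals hold 1 in the controls. CD24 lies below 1 in all 5.

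Each member was also paired with 6 genes of basal, luminal, cycling or inflammatory cells besides FOSL1. In HA FOSL1, MEX3A was found with S100A8, a calprotectin subunit, more often than the product (1.56, 1.14 to 2.07) and with KRT14, a basal keratin, less often (0.697, 0.487 to 0.965). SOX4 went the same way there, at 1.15 with S100A8 and 0.896 with KRT14, and ALDH1A3 was at 1.11 with KRT14. In gRNA2 and gRNA3 these pairs had intervals that hold 1: MEX3A was at 1.18 and 1.08 with S100A8 and at 0.965 and 1.04 with KRT14, SOX4 at 1.07 and 1.06 with S100A8 and at 0.972 and 0.980 with KRT14, and ALDH1A3 at 0.994 and 0.985 with KRT14. PROM1 was found with S100A8 at 1.43 in gRNA2 and 1.31 in gRNA3, and at 1.43 in HA FOSL1 with an interval that holds 1 (0.928 to 2.11). ALDH1A3 with TOP2A was at 1.06 in gRNA3 (1.00 to 1.12). These 8 intervals clear of 1 were picked after their values were seen from 210. The 210 are 42 pairs without KIT in each of the 5 samples, and the controls gave 0. The limit given above for genes found in most cells applies to these intervals too. Cells with a UMI of TOP2A, a gene of the G2 and M phases, had less SOX4 in every sample, with ratios of 0.751 to 0.863. They also had less CD24 (0.866 to 0.898) and EPCAM (0.900 to 0.953, with an interval that holds 1 in HA FOSL1). PROM1 was at 0.746 in VPR control, 0.705 in gRNA2 and 0.792 in gRNA3, and its intervals held 1 in the HA samples. ALDH1A3 was above 1 in HA FOSL1, at 1.14 (1.03 to 1.27). The limit of intervals over UMIs given above applies here too. Without thinning, CD24 was found in every cell of HA control, VPR control and gRNA2 and in all but 1 cell of HA FOSL1 and of gRNA3.

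The genes whose 4 log2 ratios (3 comparisons and the controls) lay nearest to a member were named for the 3 that lay 1.5-fold below a control, among 5742 genes. For PROM1 they were CLDN10 (distance 0.158), IGFBP2 (0.178) and TCEA3 (0.280). For MEX3A they were CLDN10 (0.268), IGFBP2 (0.273) and PROM1 itself (0.283). For SOX4 they were PIK3R1 (0.218), MARCKSL1 (0.244) and PDGFC (0.275). CLDN10, a claudin of tight junctions, had ratios of -1.84, -0.79 and -0.91, and IGFBP2, which binds insulin-like growth factors, -1.83, -0.81 and -0.90.

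Genes around the 8 were followed in 8 lists of 110 genes and tested in 1 model over the 5 samples (system and FOSL1, 2 residual degrees of freedom). HA FOSL1, gRNA2 and gRNA3 share the FOSL1 term of this model, although their constructs differ and both guides have the same control. Its residual spread is the difference between the guides and between the systems. No group was repeated, so the p-values of this model do not cover variation between repeated cultures. Adjusted over all 15439 genes by edgeR's quasi-likelihood test with Benjamini-Hochberg adjustment, 0.9% of genes were called higher with FOSL1 and 0.706% lower. Of the 83 related genes tested, 4 were called higher and 4 lower. The lists were chosen with earlier results of these data known, so these calls are a description and not a test of the lists. In the counts per list below, rose and fell mean called in edgeR. Without adjustment, edgeR's p was under 0.05 for 26 higher and 20 lower of the 83. It was under 0.05 for 4020 of all 15439 genes, both directions together, so little is read from this count. Without gRNA2 or without gRNA3, edgeR called 0 of all genes, with 2614 and 2371 at an unadjusted p under 0.05.

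Among basal and mammary stem cell genes, 3 of 10 tested were called higher and 0 lower. TP63 of this list, described further below, was not called. It was lower in HA FOSL1 than in HA control (0.832 and 4.30 CPM) and higher in both guides than in VPR control. The 5 of 16 past 20 CPM had a median log2 ratio of 0.53 in HA FOSL1, 0.32 in gRNA2 and 0.40 in gRNA3. In each comparison 2 of them were 1.5-fold higher, beside 5.97%, 0.921% and 0.958% of all genes past the filter. KRT14 was at 58.5 CPM in HA control, 257 in HA FOSL1, 51.5 in VPR control, 164 in gRNA2 and 165 in gRNA3, a log2 change of 1.90 (SE 0.12, edgeR adjusted p 0.014). KRT5, which pairs with KRT14 in basal filaments, went from 243 to 344 CPM in the HA system and from 254 to 396 and 405 in the VPR system (0.62, adjusted p 0.029 by edgeR). OXTR, the oxytocin receptor of myoepithelial cells, was under 10 CPM in every sample and rose by 1.65 (edgeR adjusted p 0.028). CD44, the hyaluronan receptor, had a log2 change of 0.53 and did not pass (edgeR adjusted p 0.061). KRT14 and KRT5 share sequence with other keratins, so reads common to them depend on the counting.

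Among luminal progenitor genes 1 of 9 fell and 0 rose. The 4 of 13 past 20 CPM had a median log2 ratio of -0.63, -0.26 and -0.39 in the 3 comparisons. At least 1.5-fold lower were 2, 1 and 1 of them, beside 2.19%, 0.591% and 0.836% of all genes past the filter. SLPI, a secreted protease inhibitor, was at 595 CPM in HA control, 276 in HA FOSL1, 539 in VPR control, 289 in gRNA2 and 287 in gRNA3 (log2 change -0.97, edgeR adjusted p 0.011). EHF, an ETS factor of the luminal lineage, was at 58.0, 30.1, 55.7, 42.5 and 39.5 CPM and did not pass (edgeR adjusted p 0.069). Of the mature luminal genes 0 of 8 passed in edgeR. In HA FOSL1 5.97% of all genes past the 20 CPM filter were at least 1.5-fold higher and 2.19% lower. Of the 7 mature luminal genes past it, 3 were that much higher and 1 lower. These were the EGFR ligand AREG (6.80 to 50.2 CPM), KRT18 (1404 to 3323 CPM), KRT8 (925 to 2047 CPM) and, lower, the prolactin receptor PRLR (52.1 to 27.9 CPM). AREG passed that filter only through HA FOSL1. In the guides it was under the filter, at 19.7 and 18.9 CPM against 8.84 in VPR control (log2 ratios 1.07 and 1.02). PRLR had log2 ratios of 0.03 and -0.14 there. KRT18 was at 1745 CPM in VPR control, 2225 in gRNA2 and 1985 in gRNA3. In each guide 0 of the 6 genes of this list past the filter were 1.5-fold higher or lower. Over all genes past it, 0.921% and 0.958% were that much higher and 0.591% and 0.836% lower.

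Around ALDH1A3, 1 of 23 aldehyde dehydrogenase and retinoic acid genes fell and 0 rose. It was ALDH3B2, a dehydrogenase of lipid aldehydes, at 41.5, 21.6, 51.5, 27.9 and 30.9 CPM (log2 change -0.84, edgeR adjusted p 0.029). ALDH7A1 was at 174 CPM in HA control and 84.2 in HA FOSL1, and at 164, 118 and 116 in the VPR samples (edgeR adjusted p 0.064). The median log2 ratio of the 7 genes of this list past 20 CPM was -0.26 in HA FOSL1, -0.25 in gRNA2 and -0.23 in gRNA3, while ALDH1A3 was above 0 in each.

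Of the R-spondin and Wnt genes around LGR4, 0 of 9 tested passed in edgeR, and only 2 to 3 of 17 reached 20 CPM in a comparison. Among family relatives 1 of 10 fell: SOX11, a SoxC factor like SOX4, at 18.0 CPM in HA control, 7.39 in HA FOSL1, 20.1 in VPR control, 6.18 in gRNA2 and 5.68 in gRNA3 (log2 change -1.54, edgeR adjusted p 0.028). KITLG, the ligand of KIT, was at 20.2 to 30.8 CPM, highest in VPR control, and did not pass (edgeR adjusted p 0.34). Among surface and transport genes of cancer stem cells 1 of 11 rose, the hemidesmosome integrin ITGB4 (log2 change 0.53, edgeR adjusted p 0.045). In this list 5 of 7 genes past 20 CPM were 1.5-fold higher in HA FOSL1 and 0 in either guide, with medians of 0.70, 0.08 and 0.16. Over all genes past the filter, 5.97% in HA FOSL1, 0.921% in gRNA2 and 0.958% in gRNA3 were that much higher. ALCAM was at 34.8 and 74.8 CPM in the HA samples, NT5E at 76.8 and 148, and CD47 at 81.7 and 140, none of which passed in edgeR over the 5 samples. Among pluripotency and self-renewal genes 1 of 7 fell, NES, an intermediate filament gene at 2.35 to 7.58 CPM (log2 change -1.13, edgeR adjusted p 0.032).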

How the data were processed

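The authors deposited whole-number UMI counts per gene and barcode from Cell Ranger 4, per the file headers, on genome build hg38, per the submitters' processing notes. They also deposited a table with a sample assignment for each called cell and its probability, a fraction from 0 to 1. The assignment tool and annotation are not given in the sources used here. Of 21228 called cells 15371 (72.4%) were assigned to 1 sample, 5181 were multiplets, 402 unassigned and 274 blank. The matrix lists 5 hashtags. The hashtags named GOF controle and GOF FOSL1 were taken as the HA samples, the only ones left unnamed. The labels speak of a pool of 6 stained samples, of which 5 are described, and of about 16000 cells loaded.

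Cells with at least 1500 genes and at most 20% mitochondrial UMIs were kept (14642). Doublets within a sample were not called. Levels are UMIs summed per sample as CPM, with exact 95% Poisson intervals. Ratios are log2 of CPM + 1 with exact conditional binomial intervals, and a fold of 1.5 counts as past. Shares used cells thinned to 5000 UMIs, with Clopper-Pearson intervals. UMIs of 1 library share its handling, so intervals cover counting error only. Related genes were tested with edgeR 4.0.16 (R 4.3.3) and, as an alternative, DESeq2 1.42.0; scripts were tested on simulated data. Levels of different genes are not compared, since 3' tags carry no length scale.

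The members and lists were chosen with earlier results of these data known. Named beyond the 8 genes are, per list, up to 4 genes at a mean of 20 CPM that lay 1.5-fold from control in 1 or more samples, any called by the model, and the 3 genes nearest to a member past that fold. Of these, 1 gene is not reported here. Statistics used numpy 2.4.6, scipy 1.17.1 and pandas 2.3.3.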

Additional observations from a re-analysis of the deposited data

Results flagged for a closer look

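TP63, the p53 relative that maintains basal epithelial cells and a gene of the basal list, lay on opposite sides of its control in the 2 systems beyond counting error. It was at 4.30 CPM in HA control and 0.832 in HA FOSL1, a log2 ratio of CPM + 1 of -1.53. In VPR control it was at 2.34 CPM, in gRNA2 at 3.31 and in gRNA3 at 4.20, log2 ratios of 0.37 and 0.64. The 2 controls differed by -0.66, and the highest value of the VPR samples was close to that of HA control. With 1 sample per group the difference between the systems was not tested. No other gene of the 8 or of the 110 related genes lay beyond its counting interval on opposite sides in this way.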

How the results depend on the processing

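Of 21 log2 ratios (7 genes without KIT in 3 comparisons), the sign was kept for all 21 under each alternative except without the 10% of cells with the most UMIs, where LGR4 in gRNA2, whose interval holds 0, was at 0.0018. Against the control of its system, PROM1 in HA FOSL1 ranged from -2.09 to -1.60 and SOX4 from -1.21 to -1.12. With 2-fold in place of 1.5-fold, 0 members were lower in gRNA2 and 0 in gRNA3. With the control of the other system 1 member (ALDH1A3) was past 1.5-fold higher in gRNA2, SOX4 was at -0.85 there, so that 3 members were past 1.5-fold lower, and in HA FOSL1 2 were (MEX3A and SOX4), PROM1 then lying under 20 CPM. Among related genes, the calls were 15 higher and 10 lower with DESeq2, 23 and 13 with no filter on low counts, and 0 and 0 without gRNA2 or without gRNA3. That fit then has 1 guide fewer, and edgeR's unadjusted p was under 0.05 for 24 higher and 16 lower, and for 22 and 14. Over all genes, edgeR called 139 higher and 109 lower of 15439, DESeq2 725 and 391 of 15123, and edgeR with no filter 1177 and 807 of 23639. Shares of cells with a UMI moved with the thinning depth by construction. Genes under 20 CPM, KIT above all, are limited by depth. No paired analysis was possible because each group is 1 sample and the labels give no shared replicate numbers.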

Other observations

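Some related genes lay under 20 CPM and so outside the rule for named genes, and were chosen here after their values were seen. L1CAM, a neural adhesion molecule, was at 2.28 CPM in HA control, 21.0 in HA FOSL1, 3.04 in VPR control, 9.09 in gRNA2 and 9.60 in gRNA3. HMGA2, a chromatin protein of embryonic and tumour cells, was at 2.61 and 18.6 CPM in the HA samples and at 1.92, 3.48 and 3.21 in the VPR samples. ALDH2 was at 15.9 and 4.04 CPM in the HA samples and at 16.9, 8.43 and 8.11 in the VPR samples, below its control in all 3 comparisons. LGR6, a relative of LGR4, was at 5.72 and 1.55 CPM in the HA samples and at 5.25, 5.29 and 5.04 in the VPR samples. In edgeR's model over the 5 samples 0 of these 4 passed, with adjusted p of 0.054 for L1CAM, 0.099 for HMGA2, 0.052 for ALDH2 and 0.31 for LGR6. With 1 sample per group no test of the differences between the systems was run.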
